A study of Homo sapiens with 2 samples.

Results

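The protein-coding genes of human chromosome 19 whose symbols start with ZNF and a number were examined here. They were taken from the deposited gene table by biotype, chromosome and symbol alone, without use of their expression, and they number 249 of the 58735 listed genes. The table assigns 239 of them to the C2H2 zinc finger family of transcription factors and gives no family for the other 10, and 3 are readthrough genes that join 2 gene names.

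The 2 samples were cells of the line 8024, with 1 library labelled wild type (MAEL WT) and 1 labelled MAEL knockout (MAEL KO). The line is also written PLC/PRF/5 and labelled Alexander cells, and it is an epithelial hepatocellular carcinoma (HCC) line of the liver. The MAEL WT library was described as non-treated. MAEL is a cancer/testis gene of the piRNA pathway, and it was knocked out with plasmids that carry both Cas9 and the sgRNA. Knockout cells were sorted for mCherry and grown from single cells, so the MAEL KO library stands for a clonal line, and clone and genotype cannot be told apart. Total RNA of both was sequenced once, and no difference below has a replicate check or a test.

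Most zinc finger genes of this chromosome encode KRAB zinc finger proteins. In these, an array of C2H2 fingers at the C-terminal end reads a DNA sequence, often inside a retroelement, and the N-terminal KRAB domain recruits the corepressor TRIM28, which brings the histone methyltransferase SETDB1, HP1 proteins and histone deacetylases. The genes arose by repeated tandem duplication and stand in clusters of close relatives along both arms of the chromosome.

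The libraries held 19904136 counts for MAEL WT and 20833332 for MAEL KO. MAEL itself had 1 and 0 counts, so its transcript could not check the labels. Of 9 hepatocyte or hepatoma markers, all 9 passed the count filter, 8 of them higher in MAEL KO. ALB, the plasma albumin gene, had 59 and 8550 counts, and AFP, its fetal relative, had 26 and 1351. The epithelial keratins KRT8 and KRT18 had 8981 or more counts in each library. None of 3 leukocyte markers passed the filter, with CD3E at 0 in both. Of 3 fibroblast markers, COL1A1 went from 92 to 11 counts, PDGFRB from 122 to 29 and COL1A2 had 1 in each. Of 3 endothelial markers, PECAM1 had 348 and 392 counts, CDH5 4 and 15, and VWF 1 and 0. In bulk RNA, fewer cells that express a gene and less RNA per cell cannot be told apart. The part of these marker differences in the results below was not tested.

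Counts were normalized by edgeR's TMM factors, 1 was added to the normalized value of each library, and every log2 fold change below is MAEL KO over MAEL WT, so that positive values mean a higher level in the knockout. A gene was tested, here meaning that it entered the comparison, if either library held 10 or more counts, which was the case for 221 of the 249 genes. The 95% interval beside a fold change was derived from an exact Clopper-Pearson interval on the fraction of the gene's reads found in MAEL KO, and it reflects counting error alone. The other 28 genes had at most 9 counts in a library, and 6 of them had 0 in both.

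Promoter sequences of these genes are shown because their CG content and shared words are compared between position blocks below. RefSeq promoter windows on GRCh38.p14, from 250 bases before to 50 after the start given there, were found for 217 of the 249 genes. That start can differ from the deposited gene coordinates. The windows of ZNF43 and ZNF382 below lie inside the deposited spans of these genes, which for ZNF43 is chr19:21804949-21852125. The windows of 7 genes are printed 5′ to 3′ on the strand of the gene, with CG dinucleotides, the sites of DNA methylation, in capitals. ZNF492, ZNF66 and ZNF43 are genes of the large short-arm cluster that were higher in MAEL KO, ZNF208 and ZNF91 are genes of the same cluster that were lower, and ZNF260 and ZNF382 are long-arm genes that were lower.
ZNF492 (chr19:22634074-22634373, plus strand): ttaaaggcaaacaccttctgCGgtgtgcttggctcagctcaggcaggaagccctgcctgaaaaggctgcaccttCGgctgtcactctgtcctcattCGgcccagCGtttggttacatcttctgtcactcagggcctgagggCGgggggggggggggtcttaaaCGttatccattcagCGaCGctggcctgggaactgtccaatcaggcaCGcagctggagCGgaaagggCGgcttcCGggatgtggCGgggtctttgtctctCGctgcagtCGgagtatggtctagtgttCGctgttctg
ZNF66 (chr19:20776054-20776353, plus strand): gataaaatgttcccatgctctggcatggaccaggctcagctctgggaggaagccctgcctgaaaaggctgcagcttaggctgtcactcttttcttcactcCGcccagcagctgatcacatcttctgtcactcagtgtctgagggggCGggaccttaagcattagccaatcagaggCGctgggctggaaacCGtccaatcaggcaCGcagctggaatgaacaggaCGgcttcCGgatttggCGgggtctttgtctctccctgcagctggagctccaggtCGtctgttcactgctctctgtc
ZNF43 (chr19:21836133-21836432, minus strand): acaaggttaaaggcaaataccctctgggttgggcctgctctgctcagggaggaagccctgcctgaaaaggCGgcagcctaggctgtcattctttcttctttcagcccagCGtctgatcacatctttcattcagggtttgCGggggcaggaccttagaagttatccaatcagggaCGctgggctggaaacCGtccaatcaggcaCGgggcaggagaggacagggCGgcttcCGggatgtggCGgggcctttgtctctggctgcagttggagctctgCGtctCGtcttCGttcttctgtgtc
ZNF208 (chr19:22010894-22011193, minus strand): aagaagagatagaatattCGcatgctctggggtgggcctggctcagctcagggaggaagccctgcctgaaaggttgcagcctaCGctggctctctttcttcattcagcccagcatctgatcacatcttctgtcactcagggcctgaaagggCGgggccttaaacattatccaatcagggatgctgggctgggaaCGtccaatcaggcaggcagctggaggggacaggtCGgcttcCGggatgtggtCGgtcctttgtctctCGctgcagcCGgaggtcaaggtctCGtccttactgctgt
ZNF91 (chr19:23395422-23395721, minus strand): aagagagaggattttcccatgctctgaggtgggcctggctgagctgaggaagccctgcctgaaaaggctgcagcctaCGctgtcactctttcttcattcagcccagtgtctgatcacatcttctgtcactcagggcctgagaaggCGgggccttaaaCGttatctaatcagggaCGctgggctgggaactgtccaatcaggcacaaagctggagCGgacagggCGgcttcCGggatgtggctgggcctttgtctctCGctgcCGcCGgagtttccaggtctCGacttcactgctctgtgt
ZNF260 (chr19:36528222-36528521, minus strand): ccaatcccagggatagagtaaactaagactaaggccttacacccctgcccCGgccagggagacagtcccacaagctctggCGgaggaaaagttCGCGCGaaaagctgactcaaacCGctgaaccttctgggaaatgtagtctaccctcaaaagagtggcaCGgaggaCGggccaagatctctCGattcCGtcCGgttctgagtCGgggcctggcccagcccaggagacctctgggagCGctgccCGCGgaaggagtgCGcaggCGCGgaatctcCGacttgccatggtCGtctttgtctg
ZNF382 (chr19:36605063-36605362, plus strand): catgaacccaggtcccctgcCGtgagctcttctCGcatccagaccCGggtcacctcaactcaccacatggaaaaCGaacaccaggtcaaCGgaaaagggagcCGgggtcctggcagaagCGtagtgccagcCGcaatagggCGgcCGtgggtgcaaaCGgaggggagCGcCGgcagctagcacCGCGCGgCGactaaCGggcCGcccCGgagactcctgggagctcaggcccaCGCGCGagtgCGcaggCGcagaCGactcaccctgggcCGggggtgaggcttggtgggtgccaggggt
The 5 windows of the short-arm cluster held 16, 9, 12, 10 and 11 CG dinucleotides in the order printed, whereas ZNF260 held 20 and ZNF382 held 27. Of the 12-base words of these 5 windows, 26.0% to 39.8% occurred in another of the 5, in genes that were higher and in genes that were lower alike, and 0% of the words of ZNF260 or ZNF382 did.

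Coding sequences of the cluster also held stretches that resemble each other. The third C2H2 finger of ZNF492 with its linker spans 84 bases, and it is printed beside the best ungapped match in 5 neighbours, from the GENCODE 29 coding sequence on GRCh38 and on the strand of the gene. Bases that differ from ZNF492 are in capitals.
ZNF492 (chr19:22664264-22664347, plus strand): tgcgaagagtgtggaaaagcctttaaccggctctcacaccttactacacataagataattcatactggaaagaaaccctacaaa
ZNF98 (chr19:22392434-22392517, minus strand): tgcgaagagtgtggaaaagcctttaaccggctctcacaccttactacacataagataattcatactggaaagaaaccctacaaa
ZNF729 (chr19:22314885-22314968, plus strand): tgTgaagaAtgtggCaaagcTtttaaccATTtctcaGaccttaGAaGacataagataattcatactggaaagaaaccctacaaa
ZNF43 (chr19:21808672-21808755, minus strand): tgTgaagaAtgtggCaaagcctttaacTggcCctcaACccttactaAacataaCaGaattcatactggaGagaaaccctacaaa
ZNF99 (chr19:22758883-22758966, minus strand): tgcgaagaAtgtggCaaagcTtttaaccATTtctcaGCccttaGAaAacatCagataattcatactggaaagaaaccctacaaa
ZNF208 (chr19:21973924-21974007, minus strand): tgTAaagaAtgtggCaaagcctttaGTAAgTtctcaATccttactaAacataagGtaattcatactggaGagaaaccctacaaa
ZNF98 was identical to ZNF492 over these 84 bases. ZNF729 and ZNF43 each differed at 11 bases, ZNF99 at 12 and ZNF208 at 14. Reads of such stretches can be placed on more than 1 gene, and how the counting treated them is not given in the sources used here.

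As a group, the chromosome 19 ZNF genes were slightly higher in MAEL KO, with a median log2 fold change of 0.14 (middle 50% from -0.31 to 0.67, n = 221 genes), and this sign depended on the scaling, since with total counts the median was -0.13. Over all 17887 genes tested the median was -0.04, and with total counts it was -0.31, since that scaling lowers every log2 fold change by about 0.27 and so turns the sign of values between 0 and that shift. Relative to all genes the ZNF genes stood 0.18 higher, and 0.062 higher among genes with at least 100 counts in a library. Of the 221 genes, 131 were above 0 and 90 below. Most differences were small, and 184 of the 221 genes stayed within 1 of 0 on the log2 scale.

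Genes of similar abundance had a lower median. The 2628 genes of the whole table with summed counts between 141 and 517, the middle 50% of the ZNF genes, had a median of -0.23. The 848 other protein-coding genes of chromosome 19 had a median of -0.13, and the 230 ZNF genes of other chromosomes had a median of -0.05. Another 14 C2H2 genes of chromosome 19 with other symbols had a median of -0.06, and the 9 of them named ZFP, ZSCAN, ZIM or ZIK had a median of 0.07.

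Past a log2 fold change of 2, the threshold of the study, 4 ZNF genes were higher in MAEL KO, against 2.16% of all genes tested, and 1 was lower, against 5.64%. Past 1, there were 31 higher genes, or 14.0%, against 10.2% of all genes, and 6 lower genes, or 2.71%, against 16.5%. With total counts 19 genes were higher and 18 lower past 1, so the higher share of the calls went from 83.8% to 51.4%. Among the calls past 1 over all genes tested, the higher share went from 38.2% to 22.6%. The counting interval lay above 0 for 81 ZNF genes, where 34.8% of all genes did so, and below 0 for 46, where 34.7% did so. It included 0 for the other 94. With total counts it lay above 0 for 56 and below 0 for 79.

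**Figure D1:**
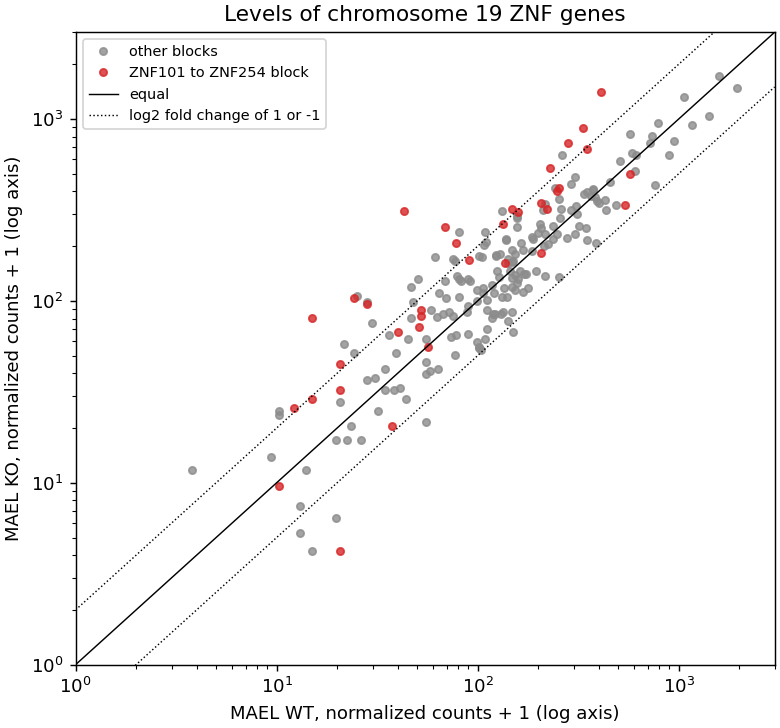
Normalized counts plus 1 of the 221 tested chromosome 19 ZNF genes in MAEL WT (horizontal) and MAEL KO (vertical), both on log axes, 1 point per gene. Red points are the ZNF101 to ZNF254 cluster, of which 28 of 35 lie above the line of equal level, and dotted lines mark a log2 fold change of 1 and -1.

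ZNF genes were expressed at low levels in both libraries. Their median level was 24.3 normalized counts per kb of gene length in MAEL WT and 26.2 in MAEL KO, against 105 and 109.5 for all protein-coding genes tested. Together the 249 genes took 47589 counts in MAEL WT, or 0.239% of the library, and 46463 in MAEL KO, or 0.223%. Only 155 genes reached 100 counts in a library and 7 reached 1000.

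The most abundant per length in MAEL WT was ZNF146, which encodes a protein of zinc fingers with no KRAB domain. It had 468 normalized counts per kb in MAEL WT and 357 in MAEL KO. ZNF787 had 432 and 471 per kb, and it was the most abundant in MAEL KO. In MAEL WT the next were ZNF865 at 289.8, ZNF579 at 269 and ZNF358 at 234 per kb, and in MAEL KO ZNF581 at 277, ZNF865 at 231 and ZNF580 at 217. All of these lie outside the short-arm cluster, and none held the KRAB A box pattern. ZNF146 had 2082 and 1374 counts, a log2 fold change of -0.39 (-0.49 to -0.29). ZNF787 had 1701 and 1602 counts, a log2 fold change of 0.12 (0.02 to 0.22), and was at -0.15 with total counts.

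The fold changes differed along the chromosome. Sorted by start, the genes fell into 16 blocks, with a new block where a start lay more than 1 Mb past the one before. Of these, 8 blocks held 5 or more tested genes and are named by their first and last gene, and the 13 tested genes of the smaller blocks are called scattered. The 71 tested genes of the short arm had a median log2 fold change of 0.64, and the 150 of the long arm had 0.04. The gap was smaller in the other protein-coding genes, with medians of -0.03 on the short arm (n = 421) and -0.23 on the long arm (n = 427).

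**Figure D2:**
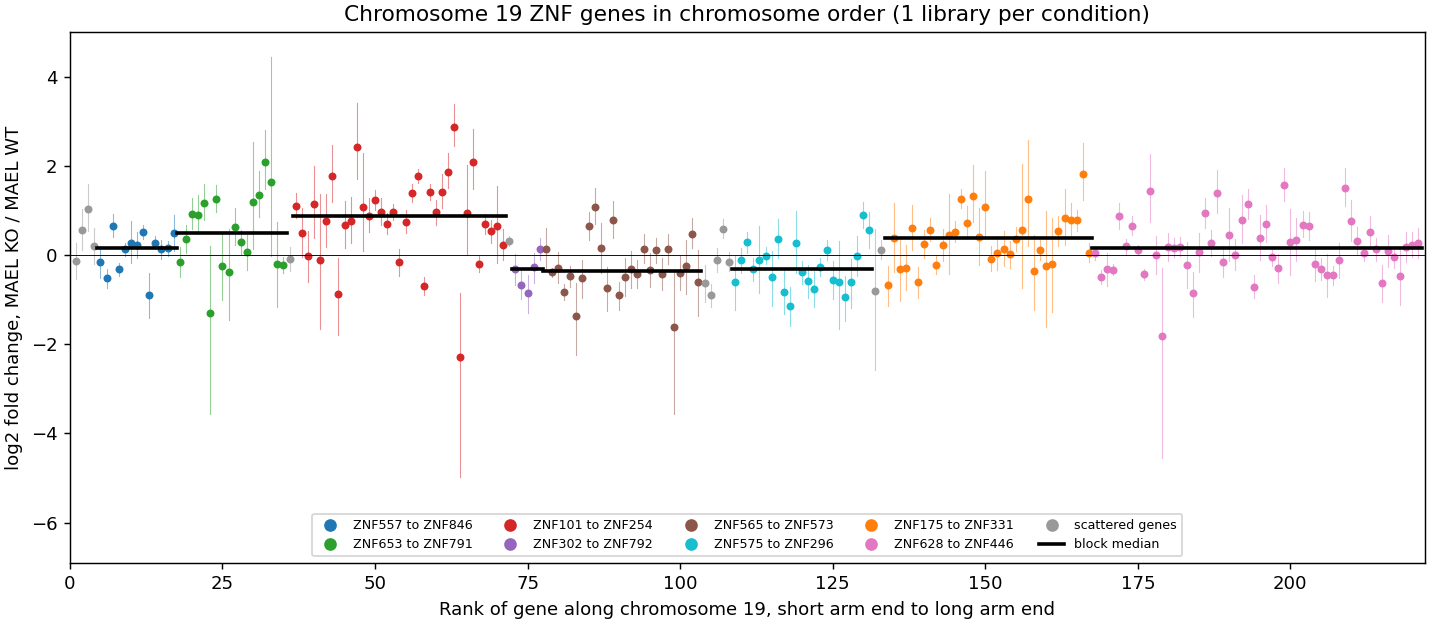
Log2 fold change (MAEL KO over MAEL WT) of the 221 tested chromosome 19 ZNF genes, ranked by start along the chromosome, with thin lines for the 95% counting interval, colours for the position blocks and black bars for the block medians. The ZNF101 to ZNF254 block has a median of 0.88, and the 3 blocks that follow it on the long arm have medians from -0.36 to -0.31.

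The ZNF101 to ZNF254 block, which ends next to the centromere and spans GRCh38 chr19:19668796-24129961, held 37 genes, 35 of them tested, and had the median farthest from 0 of the 8 blocks, a rank it lost to the ZNF565 to ZNF573 block (-0.64) with total counts. Its median log2 fold change was 0.88 (middle 50% from 0.51 to 1.31), or 0.61 with total counts. Of the 35 genes, 28 were higher in MAEL KO (27 with total counts) and 7 lower. The interval lay above 0 for 25 genes and below 0 for 4. Past 1, 13 genes were higher, or 37.1%, against 10.2% of all genes tested. In the other direction 1 was lower, or 2.86%, against 16.5%. This block so held 13 of the 31 higher genes. Its 37 genes summed to 5514 counts in MAEL WT and 8851 in MAEL KO, a log2 ratio of 0.89.

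No other protein-coding gene inside this block passed the count filter, so the neighbours there were 23 non-coding genes and pseudogenes. Their median was -0.05, with 11 above 0 and 12 below. Without the block, the remaining 186 ZNF genes had a median of 0.10, and 18 of them, or 9.68%, were higher past 1, against 10.2% of all genes tested. With at least 100 counts in a library, 20 genes of the block remained, 17 of them above 0, and their median was 0.96. ZNF430, ZNF729, ZNF98 and ZNF492 passed this filter through MAEL KO alone. The filter so favours genes that were higher there, and the 0.96 is not a check of the block median.

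ZNF492 was the ZNF gene with the highest fold change. It had 45 counts in MAEL WT and 290 in MAEL KO, a log2 fold change of 2.87 (2.44 to 3.39). ZNF66 had 15 and 74 counts, a log2 fold change of 2.43 (1.70 to 3.42). ZNF724 had 25 and 95 counts, a log2 fold change of 2.09 (1.49 to 2.83). These 3 genes were at low level in MAEL WT, and ZNF724 shared 55.9% of its 50-base words with other genes, most with an overlapping gene on the same strand.

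Several better counted genes of the block were also higher. ZNF43 had 442 and 1305 counts and a log2 fold change of 1.77 (1.62 to 1.93), and shared only 3.85% of its 50-base words with other genes. ZNF257 went from 356 to 825 counts, with 1.42 (1.24 to 1.61), and ZNF100 from 301 to 681, with 1.39 (1.19 to 1.59). ZNF714 had 244 and 496 counts, with 1.23 (1.01 to 1.46). For these 4 genes the lower end of the interval was above 1. ZNF98 had 73 and 234 counts, with 1.88 (1.51 to 2.29), and ZNF90 had 29 and 88, with 1.77 (1.19 to 2.47). ZNF675, whose protein is also known as an inhibitor of TRAF6 signalling, had 266 and 373 counts, with 0.70 (0.47 to 0.93).

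**Figure D3:**
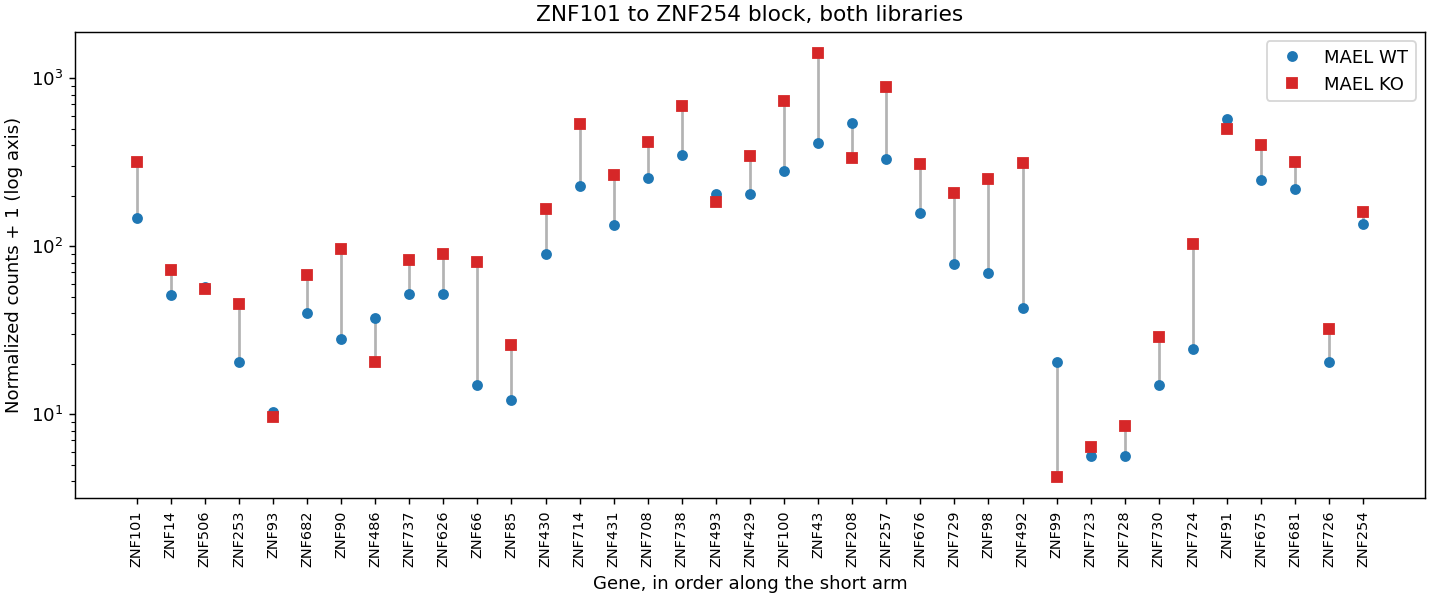
Normalized counts plus 1 (log axis) of the 37 genes of the ZNF101 to ZNF254 block in the order of their starts, with MAEL WT as blue circles, MAEL KO as red squares and a grey line joining the 2 values of a gene. The red square lies above the blue circle for most genes, and ZNF486, ZNF208, ZNF99 and ZNF91 are those whose counting interval lay below 0.

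A few genes of the same block went the other way. ZNF208 had 577 and 310 counts and a log2 fold change of -0.68 (-0.89 to -0.48). ZNF91, a repressor of SVA retroelements in primates, had 612 and 463 counts, with -0.19 (-0.37 to -0.02). ZNF99 had 21 and 3 counts, with a ratio of -2.28 on the log2 scale (-4.99 to -0.85), and ZNF486 had 39 and 18, with -0.87 (-1.80 to -0.07). ZNF93, a repressor of L1 retroelements, had 10 and 8 counts, with -0.10 (-1.66 to 1.38), so that no difference was detectable at this depth.

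The proteins with the longest finger arrays of the block were among those lower genes. ZNF208 encodes 36 fingers, ZNF91 31 and ZNF99 26, the highest numbers in the block beside the 34 of ZNF729. ZNF729 was higher, at 83 and 193 counts and 1.42 (1.05 to 1.82). The 4 genes with over 20 fingers had a median of -0.44, and the 31 with fewer had a median of 0.95. This split was made after the values were seen.

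Shared sequence limited how exactly single genes of this block could be counted. Of the 35 tested genes, 24 shared less than 10% of their 50-base words with other genes, and their median log2 fold change was 0.77, with 19 above 0. The 11 genes with more had a median of 1.39. ZNF98 shared 58.1% of its words, most with ZNF492, which shared 33.3%. The counts of this pair summed to 118 in MAEL WT and 524 in MAEL KO, a log2 fold change of 2.35 (2.07 to 2.66), so the higher level in MAEL KO held for the sum while the split between the 2 genes is uncertain.

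The ZNF653 to ZNF791 block of the short arm, at chr19:11483427-12640098, had 18 tested genes of 26 and a median of 0.50 (middle 50% from -0.19 to 1.19), or 0.23 with total counts. Of these, 12 were above 0 and 6 below, and 6 were above 1, or 33.3%, against 10.2% of all genes tested. The 3 other protein-coding genes tested inside it had a median of -0.01. ZNF443 had 26 and 98 counts, a log2 fold change of 2.08 (1.49 to 2.81), and its close copy ZNF799 had 49 and 109, with 1.34 (0.86 to 1.88). ZNF443 shared 40.2% of its 50-base words with other genes and ZNF799 47.7%, most in each case with the other of the pair. The sum of the 2 went from 75 to 207 counts, with 1.66 (1.29 to 2.08). Both also overlap exons of other genes on the same strand, which the sum does not take into account. ZNF700 had 140 and 290 counts, with 1.25 (0.97 to 1.56). The lowest gene, ZNF69, had 13 and 4 counts, with -1.30 (-3.56 to 0.20), an interval that included 0.

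Nearer the end of the short arm, the ZNF557 to ZNF846 block at chr19:7069444-9793180 had 13 tested genes and a median of 0.15, or -0.13 with total counts, and none was past 1 in either direction. Its 36 other protein-coding genes had a median of -0.12. ZNF414 was highest, at 230 and 315 counts and 0.66 (0.41 to 0.92). ZNF426 was lowest, at 108 and 50 counts and -0.89 (-1.41 to -0.40). ZNF558, a KRAB repressor of the mitophagy gene SPATA18, had 1014 and 702 counts, with -0.32 (-0.46 to -0.18). ZNF317 had 789 and 749 counts, with 0.14 (-0.01 to 0.28), and ZNF358 had 520 and 313, with -0.52 (-0.73 to -0.32). Of these 5 genes, ZNF317 was the one whose interval included 0.

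On the long arm, the first 3 blocks were lower in MAEL KO. The ZNF302 to ZNF792 block at chr19:34677639-34964049 had 5 tested genes, 4 of them below 0, and a median of -0.31. The ZNF565 to ZNF573 block at chr19:36182060-37817300 had 26 tested genes, 17 of them below 0, and a median of -0.36 (-0.64 with total counts). The ZNF575 to ZNF296 block at chr19:43525497-45076588 had 23 tested genes, 17 of them below 0, and a median of -0.32. The other protein-coding genes had medians of -0.10 (n = 4) in the second and -0.15 (n = 22) in the third of these blocks. The median was -0.23 both in the other protein-coding genes of the whole long arm (n = 427) and in all genes of similar abundance (n = 2628). In all 3 blocks together, 3 genes were below -1. These were 0% of the tested genes in the first block, 7.69% in the second and 4.35% in the third, against 16.5% of all genes tested.

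Of the 10 ZNF genes with the lowest fold changes among those with at least 50 summed counts, 6 lie in these blocks. ZNF382, a repressor often silenced by methylation in tumours, had 58 and 19 counts and a log2 fold change of -1.36 (-2.23 to -0.63). ZNF222 had 159 and 62 counts, with -1.14 (-1.60 to -0.72). ZNF540, the lowest of its block but under 50 summed counts and so not among the 10, had 20 and 5 counts, with -1.62 (-3.56 to -0.33). ZNF260 had 815 and 399 counts, with -0.82 (-0.996 to -0.65), the best counted of the 10 lowest genes. ZNF568, whose mouse counterpart represses a placental Igf2 transcript, had 271 and 125 counts, with -0.90 (-1.22 to -0.60), and ZNF780B of the scattered genes had 415 and 192, with -0.90 (-1.16 to -0.65).

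Others of the 10 lowest were ZNF112 with 110 and 49 counts (-0.94), ZNF599 with 150 and 71 (-0.86) and ZNF460, which lies further along the arm, with 108 and 51 (-0.86). ZNF224, a KRAB repressor that also acts with WT1, had 327 and 216 counts, with -0.39 (-0.64 to -0.14). Not all genes of these blocks were lower. ZNF850 had 82 and 152 counts, with 1.09 (0.70 to 1.51), and ZNF180 had 168 and 270, with 0.89 (0.61 to 1.18). ZNF792 had 275 and 263 counts, with 0.15 (-0.10 to 0.40).

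Towards the end of the long arm the medians were above 0 again, though with total counts the last block was below. The ZNF175 to ZNF331 block at chr19:51571298-53580269 had 34 tested genes of 40, a median of 0.37 and 25 genes above 0. Of the 34, 5 were above 1, or 14.7%, against 10.2% of all genes tested. The median was 0.10 with total counts and 0.23 among genes with at least 100 counts in a library. ZNF813 was highest, at 29 and 91 counts and 1.82 (1.24 to 2.52), and ZNF480, with 282 and 587 counts, had 1.26 (1.06 to 1.48). ZNF175, known for a role in HIV infection of macrophages, was lowest at 119 and 64 counts and -0.68 (-1.15 to -0.23). Only 2 other protein-coding genes of that block were tested, at -1.91 and 0.60.

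Of the genes of this block with known roles, ZNF350, a corepressor partner of BRCA1, had 62 and 82 counts and a log2 fold change of 0.61 (0.12 to 1.11). ZNF808, which silences MER11 retroelements during pancreas development, had 41 and 47 counts, with 0.40 (-0.23 to 1.05). ZNF331, an imprinted gene, had 391 and 351 counts, with 0.05 (-0.16 to 0.27). ZNF649 had 43 and 30 counts, with -0.30 (-1.03 to 0.40), and ZNF611, which binds SVA elements, had 126 and 112, with 0.04 (-0.34 to 0.42). For the last 4 of these genes the interval included 0.

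The ZNF628 to ZNF446 block at the end of the long arm, chr19:55476332-58481230, was the largest, with 54 tested genes of 59. Its median was 0.15 (middle 50% from -0.21 to 0.51), and -0.13 with total counts, and the 20 other protein-coding genes inside it had a median of 0.24. Of the 54 genes 35 were above 0, and 5 were above 1, or 9.26%, against 10.2% of all genes tested. ZNF551 had 86 and 222 counts, with 1.57 (1.21 to 1.95), and ZNF256 had 65 and 161, with 1.504 (1.09 to 1.96). ZNF471 was lowest, at 15 and 3 counts and a log2 ratio of -1.82 (-4.54 to -0.29).

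ZNF274, which binds the 3′ ends of other zinc finger genes and recruits SETDB1 there, had 659 and 585 counts, with 0.04 (-0.12 to 0.20) and -0.24 with total counts. ZNF304 had 117 and 195 counts, with 0.94 (0.61 to 1.29), an interval above 0. Another 3 genes of this block are often methylated in tumours. ZNF154 had 32 and 34 counts, with 0.29 (-0.44 to 1.04), ZNF671 had 71 and 78, with 0.34 (-0.14 to 0.83), and ZNF132 had 58 and 36, with -0.47 (-1.12 to 0.15). The interval included 0 for each of these 3.

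**Figure D4:**
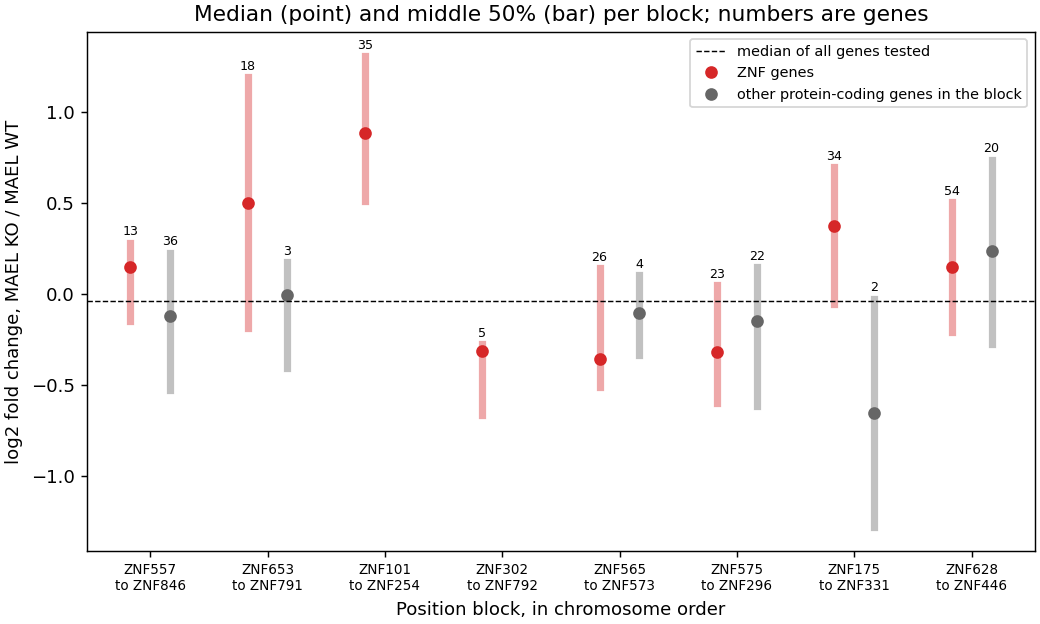
Median (point) and middle 50% (bar) of the log2 fold change in the 8 position blocks with 5 or more tested genes, for the ZNF genes (red) and the other protein-coding genes inside the block (grey), with the number of genes above each bar. The ZNF101 to ZNF254 block (0.88, n = 35) has no tested neighbour of the second kind, and the dashed line is the median of all genes tested, -0.04.

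The scattered genes had a median of -0.09, with 6 above 0 and 7 below, and the median was 0.17 with no count filter and 0.045 after centring on the other protein-coding genes of the chromosome. ZNF57 had 50 and 90 counts, with 1.04 (0.54 to 1.59), and ZNF554 had 118 and 93, with -0.13 (-0.54 to 0.27). ZNF507 had 1133 and 1219 counts, with 0.32 (0.20 to 0.43), ZNF574 had 311 and 405, with 0.59 (0.37 to 0.81), and ZNF526 had 421 and 329, with -0.15 (-0.36 to 0.07). ZNF473, which takes part in the processing of histone mRNA, had 401 and 378 counts, with 0.12 (-0.08 to 0.33). ZNF333 had 264 and 215 counts, with -0.09 (-0.35 to 0.18), and ZNF780A had 253 and 202, with -0.11 (-0.39 to 0.16). ZNF114 had 13 and 6 counts, with -0.81 (-2.59 to 0.59). The interval included 0 for ZNF554, ZNF526, ZNF473, ZNF333, ZNF780A and ZNF114. ZNF536, a gene of neurons, was not tested at 0 and 1 counts.

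Genes next to each other moved in the same direction in 123 of 206 pairs of adjacent tested genes of a block, or 59.7%, with Spearman's rho of 0.27 and Pearson's r of 0.20 across pairs. Without the ZNF101 to ZNF254 block it was 59.9%, with rho of 0.26. No share was computed for genes that are not neighbours. As 59.3% of the 221 genes, and 80% of those in the ZNF101 to ZNF254 block, were above 0, pairs can match in sign without being adjacent. The pairs also share genes with each other and some share reads, so the values are a description.

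The KRAB A box was searched in the proteins translated from GENCODE 29 coding sequences, as a tryptophan, leucine, glutamine, leucine, tyrosine and valine at the spacing of the box, and 186 of the 249 genes held it. The 163 tested genes with the pattern had a median log2 fold change of 0.23, with 107 above 0, and the 58 without it had -0.13, with 24 above 0. With the ZNF101 to ZNF254 block left out, the medians were 0.145 (n = 130) and -0.146 (n = 56). The pattern was unevenly placed. In the ZNF101 to ZNF254 block 35 of 37 genes held it, but in the ZNF575 to ZNF296 block only 2 of 24 held it. When the tryptophan was not required, a choice made after the data were seen, 19 of those 24 did, and the medians of the genes with and without the pattern were 0.17 and 0.00 over the chromosome. Without the ZNF101 to ZNF254 block these were 0.12 and -0.05.

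The number of C2H2 fingers ran from 0 to 36 with a median of 12, and genes with up to 12 fingers had a median log2 fold change of 0.17 (n = 112), against 0.11 for those with more (n = 109). Pearson's r over the 221 genes was -0.02. The median log2 fold change was 0.14 both in the 98 genes without an exon that overlaps another gene and in the 123 with one.

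Promoters of these genes were richer in CG dinucleotides than most, with a median of 20 in 300 bases against 14 in all 35116 RefSeq promoter windows, and 54.4% held 20 or more against 41.2%. The ZNF101 to ZNF254 block had fewer, with a median of 10 and a range from 8 to 18 in 29 windows. In the other 7 large blocks the median ran from 16 to 26. Over the chromosome, genes with up to 20 had a median log2 fold change of 0.27 (n = 101) and genes with more had 0.14 (n = 94). Windows with 12 or fewer CG dinucleotides belonged to 19 tested genes of that block, with a median log2 fold change of 0.71, and to 10 tested genes elsewhere, with a median of -0.21. Without the block, genes with up to 20 had a median of 0.06 (n = 73), and the genes with more were the same 94. Whether CG number bears on the fold changes was not tested.

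**Figure D5:**
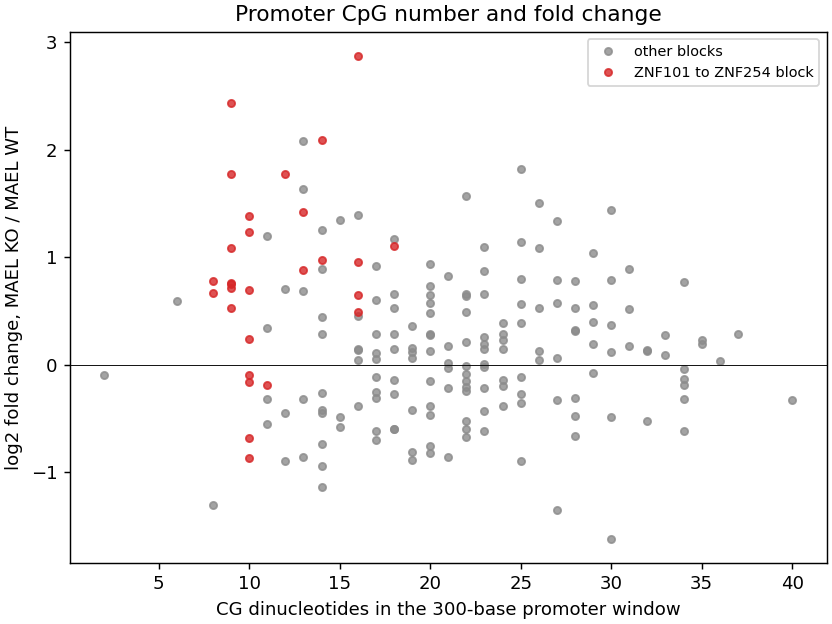
Number of CG dinucleotides in the 300-base promoter window (horizontal) and log2 fold change, MAEL KO over MAEL WT (vertical), for the tested chromosome 19 ZNF genes with a RefSeq window, 1 point per gene. The ZNF101 to ZNF254 block (red) sits between 8 and 18 CG dinucleotides with most points above 0, while grey points of other blocks in the same range lie on both sides of 0.

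The promoters of this block also shared a short word that was rare over all promoter windows. The 12-base word held by most of its windows, chosen after the windows were seen, was CTGTCACTCAGG, searched on both strands with its reverse complement CCTGAGTGACAG. It occurred in 18 of 29 windows of the block, or 62.1%. Of the 188 windows of the other chromosome 19 ZNF genes, 6 held it, or 3.19%. All 6 belong to the ZNF653 to ZNF791 block, which has 25 windows, and those of ZNF625 and its readthrough gene nearly coincide. Over all 35116 windows 38 held it, or 0.108%, among them those of ZNF107, ZNF138, ZNF195, ZNF669 and ZNF680. Genes with the word lay on both sides of 0. The 18 genes of the ZNF101 to ZNF254 block with it had a median log2 fold change of 0.72, ranging from -0.87 to 2.87. The 10 tested genes of that block without it had a median of 1.00, all of them above 0.

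On the corepressor side of the pathway, most genes had higher levels in MAEL KO. Of 25 genes that act with KRAB zinc finger proteins in silencing, all 25 tested, 23 were above 0 (21 with total counts), where 48.0% of all genes tested were, with a median log2 fold change of 0.54 (0.27 with total counts). TRIM28, the corepressor that binds the KRAB domain, had 6072 and 9574 counts, with 0.87 (0.82 to 0.91). SETDB1, the methyltransferase it recruits, had 602 and 642 counts, with 0.30 (0.14 to 0.47). Past 1 there were 6 genes, or 24%, beside the 10.2% of all genes, and 4 with total counts.

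These 6 were UHRF1 and DNMT1, which copy DNA methylation to the new strand, DNMT3B, which sets it, the histone methyltransferase SUV39H1, the HP1 protein CBX3 and the deacetylase HDAC1. UHRF1 had 486 and 1913 counts, with 2.18 (2.04 to 2.33), and DNMT1 had 2018 and 4034, with 1.21 (1.13 to 1.29). DNMT3B had 683 and 1575 counts, with 1.41 (1.29 to 1.55), and SUV39H1 had 312 and 728, with 1.43 (1.24 to 1.63). CBX3 had 3517 and 7735 counts, with 1.35 (1.29 to 1.41), and HDAC1 had 2715 and 5075, with 1.11 (1.05 to 1.18). The 2 lower genes were the chromatin remodeller CHD3, at -0.84, and MORC2 of the HUSH silencing pathway, at -0.33. Whether these levels bear on those of the zinc finger genes was not tested.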

How the data were processed

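Of the tables used, one holds gene-level read counts as the authors deposited them, in whole numbers that were not normalized. The other holds deposited FPKM values, which the authors had also rescaled between libraries. The submitters' processing notes name HISAT2 2.0.5, featureCounts 1.5.0-p3 and hg19, but the coordinates of 58690 of the 58735 genes, and of all 249 chromosome 19 ZNF genes, equal those of GENCODE 29 on GRCh38. How reads placed on several genes, overlapping genes and strand were treated is not given in the sources used here.

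Counts were normalized with TMM in edgeR 4.0.16 under R 4.3.3 (factors of 1.10 in MAEL WT, 0.909 in MAEL KO), set to a common effective library size, and increased by 1. Genes with at least 10 counts in 1 library were kept. With 1 library per condition no test was made, and intervals cover counting error only, since reads are not independent molecules. Summaries used Python 3.11.15 with pandas 2.3.3 and SciPy 1.17.1. Proteins were translated from GENCODE 29 coding sequences, and fingers and the KRAB A box were found by pattern. For each gene the transcript with the longest protein was used. Shared sequence is the percentage of the 50-base words of that transcript found in transcripts of another gene, so other isoforms of the gene are not covered. A gene list or feature median is a description beside that of all genes.

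Genes were named by rule, as the 10 highest and 10 lowest with at least 50 summed counts, the 5 highest per length in each library, the highest and lowest of each block, genes of known role, and, of the corepressor list, TRIM28, SETDB1 and those past 1. ZNF257, ZNF100, ZNF714, ZNF729, ZNF208, ZNF700, ZNF799, ZNF480, CHD3 and MORC2 were added after their values were seen. The genes, lists and blocks were chosen with earlier results of these data known. Alternatives were DESeq2 1.42.0 size factors, total counts, the FPKM ratio (0.01 added), count filters of 1 and 100, priors of 0.1 and 5, and centring on the other protein-coding genes of chromosome 19. The steps were checked on simulated data.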

Additional observations from a re-analysis of the deposited data

How the results depend on the processing

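No paired analysis was possible because each condition has 1 library, and for the same reason no replicate could be left out. With total counts every fold change was about 0.27 lower, so that the median log2 fold change of the ZNF genes was -0.13 in place of 0.14 and those of the ZNF628 to ZNF446 and ZNF557 to ZNF846 blocks were both -0.13 in place of 0.15, all with the sign turned. The same scaling gave 0.61 for the ZNF101 to ZNF254 block and -0.64 for the ZNF565 to ZNF573 block. It left 2 genes higher and 2 lower past 2, 19 higher and 18 lower past 1, and 79 genes with an interval below 0. Total counts also turned the sign of 8 named genes, among them ZNF580, to -0.082, and ZNF787, to -0.15. Centring on the other protein-coding genes of chromosome 19 gave a median of 0.27 over the ZNF genes and 0.28 for the ZNF628 to ZNF446 block, and turned the scattered genes from -0.09 to 0.045, while no count filter gave them 0.17. A prior count of 5 left 2 genes higher and 0 lower past 2, and a prior of 0.1 gave 2 lower. With at least 100 counts in a library, fewer genes were tested. Of these ZNF genes, 1 was higher and 0 lower past 2, while 17 were higher and 1 lower past 1. Among calls past 1, the higher share with this filter was 94.4% for the ZNF genes and 50.2% for all genes tested. In the main setting these shares were 83.8% and 38.2%, and with total counts 51.4% and 22.6%. The counts past 2 and those of intervals were not set beside all genes under the alternatives. Of 468 values of the 61 tested genes named by rule under these alternatives, 439 stayed within the counting interval and the others did not, and 11 had the other sign, 8 with total counts and 3 after centring. The sign of the ZNF101 to ZNF254 block held under all 8 alternatives. Depth limits the 28 untested genes and those with under 50 summed counts, whose intervals are wide.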
